A study of Mus musculus with 6 samples.

Results

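The 10 genes described here are primary microcephaly genes whose products work at the centrosome or the spindle pole or, for Mcph1, in the nucleus. They are Aspm and Wdr62 at the spindle pole, Plk4, Stil, Sass6, Cenpj, Cep135 and Cep152 in centriole duplication, Cdk5rap2 in the pericentriolar material, and Mcph1 in the nucleus. The symbols were taken from a list of primary microcephaly genes and matched to Ensembl gene IDs, which gave 10 of the 32493 genes counted, and all 10 were among the 16710 genes that passed the filter on low counts and were tested. In cko NSCs, 8 of the 10 were called higher than in ctrl NSCs, against 7.86% of all tested genes. The largest rises were those of Aspm and Wdr62.

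RNA-seq counts were collected from neural stem cells (NSCs) of E14.5 mouse embryos, to ask how transcript levels differ after deletion of miR-151. In the study's own description, cko NSCs were miR-151 fl/fl with Emx1-IRES-Cre and ctrl NSCs from littermates were miR-151 fl/fl and Cre-negative, so both carried the floxed alleles, which lie in an intron of Ptk2, while the sample labels give the genotypes only as cko and wt. Cells were dissected from around the lateral ventricles of mice on a C57BL/6J background and grown for 3 generations in medium with B27, to which the study's methods but not the labels add EGF and bFGF. The driver expresses Cre in the dorsal telencephalon, so cells of other origin would keep the miRNA. Mir151 itself was not analysed here, and the genotype labels were not checked against it, nor can Ptk2 serve for this, since its exons are kept. The sample labels do not tie the libraries to separate embryos, so p-values measure only the spread between libraries, which may be technical.

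The counts summed to 22773559 in ctrl 1, 18950862 in ctrl 3, 17883796 in cko 1, 23335736 in cko 2 and 21736269 in cko 3. The column of ctrl 2 equalled the mean of ctrl 1 and ctrl 3, rounded up, in 32493 of 32493 genes and was counted in no n. The comparison was therefore between 2 ctrl and 3 cko libraries. Levels are given as CPM, counts scaled to a common library total after TMM normalization, and 3 counts corresponded to between 0.129 and 0.168 CPM. A gene is called higher or lower where the adjusted p of edgeR's quasi-likelihood test over all 16710 genes was under 0.05.

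A centrosome consists of a pair of centrioles surrounded by pericentriolar material that nucleates microtubules, and it is copied once in each cell cycle. PLK4 starts the copying, STIL and SASS6 build the cartwheel of the new centriole, CENPJ lengthens its wall, and CEP135 and CEP152 belong to the scaffold on which these proteins act. Loss of any of these genes can cause primary microcephaly, in which the cerebral cortex is small at birth, and radial glia, the stem cells of the embryonic cortex, are the cells most studied in this condition.

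Among NSC markers, Sox2 lay between 556 and 626 CPM and Nes, which encodes nestin, between 471 and 1068 CPM in the 5 libraries, while Pax6 lay between 44.9 and 51.9 CPM. Markers of the glial lineages were also present, with Olig2 between 539 and 819 CPM. Of the 8 NSC markers examined, 3 were called higher in cko, namely Nes, Hes5 and Prom1, and Slc1a3 was called lower. Emx1, the gene whose locus carries Cre, lay near the floor, at 0.437 and 0.48 CPM in ctrl 1 and ctrl 3 and at 0.056, 0.171 and 0.276 CPM in cko 1, cko 2 and cko 3, and was not tested.

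Across the 10 genes, 8 were called higher in cko and 0 lower in edgeR, against 7.86% of all tested genes called higher (1314 of 16710) and 8.57% called lower (1432). At an unadjusted p under 0.05, 9 of the 10 were higher and 0 lower, against 2662 and 2783 of all 16710 tested genes. DESeq2 called 8 of the 10 higher and 0 lower, against 1581 and 1703 of all tested genes. In 9 of the 10, every cko library lay above both ctrl libraries, which was the case for 25.4% of all tested genes. The log2 fold changes of the 10 genes ran from 0.28 to 1.16 with a median of 0.79, against a median of -0.0026 over all tested genes. Cep152 and Mcph1 were the genes not called. Without cko 2, 3 of the 10 (Aspm, Stil and Cenpj) were called, and the same 3 without cko 3. In these fits, with 1 library fewer, 317 and 336 of all genes were called higher. Among genes that lost the call, the log2 fold changes were then 0.971 and 0.995 for Wdr62 and 0.76 and 0.78 for Plk4. They were 0.67 and 0.80 for Sass6, 0.44 and 0.44 for Cep135, and 0.27 and 0.26 for Cdk5rap2. Without cko 1, 6 of the 10 and 853 of all genes were called higher. With a log2 fold change above 0.9 and an unadjusted p under 0.01 as the limits, 3 of the 10 passed (Aspm, Wdr62 and Stil), against 2.39% of all tested genes.

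**Figure D1:**
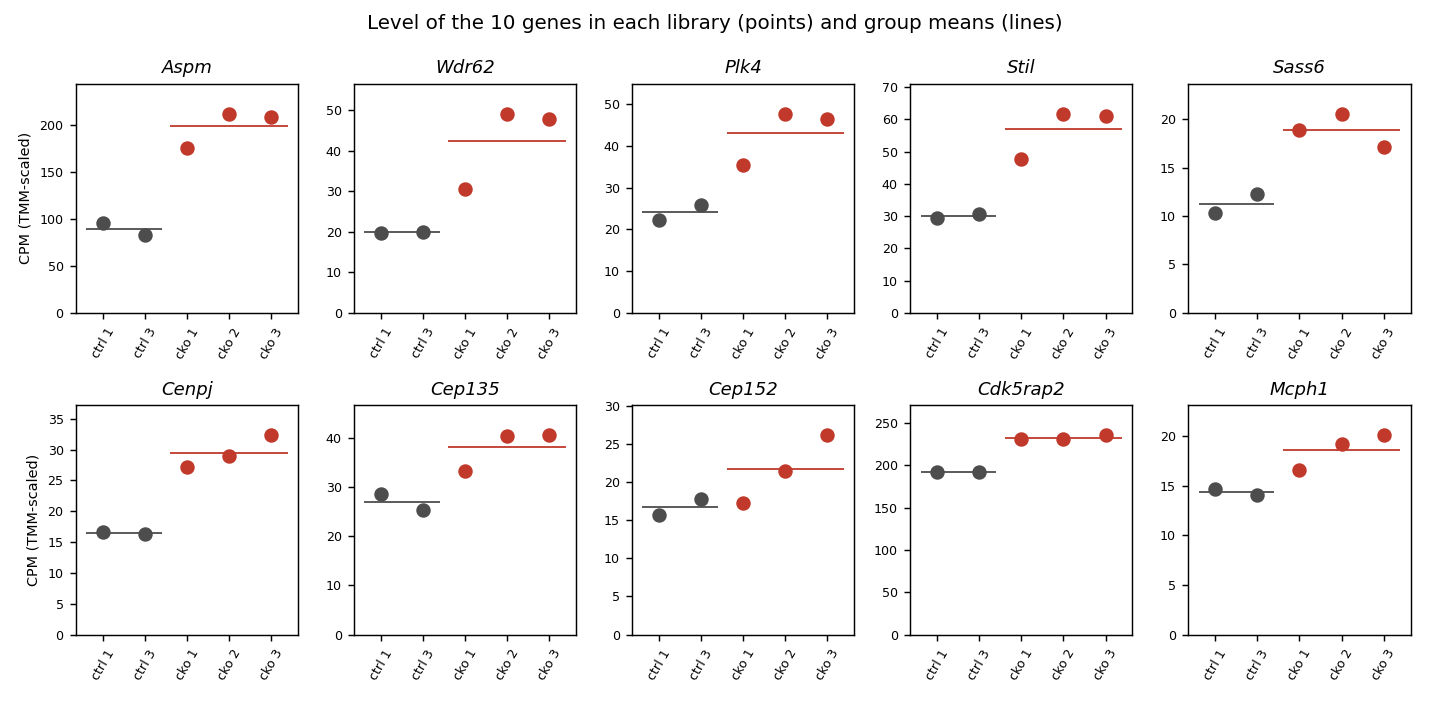
Level of each of the 10 genes in CPM (vertical axis, from 0) in the 2 ctrl libraries (grey) and the 3 cko libraries (red), with lines at the group means. In every panel but that of Cep152, the lowest red point lies above the highest grey point.

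Among the genes of the spindle pole, both rose in cko to more than 2 times the ctrl mean. Aspm encodes a large microtubule minus-end protein that gathers at the spindle poles in mitosis and is the gene most often mutated in human primary microcephaly. It was measured at 95.9 CPM in ctrl 1 and 82.8 in ctrl 3, and at 176 CPM in cko 1, 212 in cko 2 and 209 in cko 3. The groups did not overlap, and cko 1 was the lowest of the cko libraries. The mean rose from 89.3 ± 9.28 CPM (SD, n = 2) to 199 ± 20 CPM (SD, n = 3). The log2 fold change was 1.16 with a standard error of 0.11 (edgeR, adjusted p = 0.00192).

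Wdr62 encodes a scaffold protein that moves to the spindle pole in mitosis and binds the JNK kinases. Its level was 19.7 CPM in ctrl 1 and 20.1 in ctrl 3, and 30.5, 49.2 and 47.9 CPM in cko 1, cko 2 and cko 3. The ctrl libraries were nearly equal, whereas cko 1 lay between them and the other cko libraries. The log2 fold change was 1.10 with a standard error of 0.21 (edgeR, adjusted p = 0.0138). The call was lost without cko 2 (edgeR, adjusted p = 0.065) and without cko 3 (adjusted p = 0.0679), within a range of 5.52e-15 to 0.0679 over the 12 alternative fits.

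The promoters of Aspm, Wdr62 and Stil are shown because these genes had the largest log2 fold changes of the 10. They were also chosen because each window described for them held 3 CCAAT boxes. CCAAT is the sequence bound by the factor NF-Y, and many genes of mitosis carry several copies of it, often with the CHR element TTTGAA close to the start. Windows of 300 bases, most of them before the transcription start, taken from RefSeq on GRCm38.p6, were searched on both strands for CCAAT and TTTGAA, whose matches did not overlap in any of these windows. A window was matched for 9 of the 10 genes, all but Mcph1. Wdr62 had 2 windows, of which 1 is described here. Each line gives the strand of the gene, 5′ to 3′, from 130 bases before to 20 bases after the start, with the matches to either motif in capitals (ATTGG is CCAAT, and TTCAAA is TTTGAA, read on the other strand). The stretch of Aspm lies at chr1:139454643-139454792 on the plus strand, that of Wdr62 at chr7:30280402-30280551 on the minus strand and that of Stil at chr4:114999988-115000137 on the plus strand.
Aspm: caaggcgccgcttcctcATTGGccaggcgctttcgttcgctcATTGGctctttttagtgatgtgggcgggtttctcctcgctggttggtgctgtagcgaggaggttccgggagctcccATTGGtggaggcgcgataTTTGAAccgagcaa
Wdr62: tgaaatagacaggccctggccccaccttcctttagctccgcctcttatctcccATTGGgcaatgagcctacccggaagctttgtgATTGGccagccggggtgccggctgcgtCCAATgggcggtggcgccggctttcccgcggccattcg
Stil: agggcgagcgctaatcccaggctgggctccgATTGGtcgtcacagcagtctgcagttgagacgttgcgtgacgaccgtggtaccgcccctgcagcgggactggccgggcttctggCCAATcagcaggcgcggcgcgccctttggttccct

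In Aspm, the CCAAT matches began at positions -113, -88 and -12, and TTTGAA at position 7, counted from 1 at the start. In Wdr62 they began at -77, -45 and -18, and in Stil at -241, -99 and -15, the first of which lies outside the stretch shown. CCAAT was found in 5 of the 9 windows, and 3 copies in 4 of them, against 37.4% and 3.37% of all 32851 windows. Among the first windows of genes called higher, 50.4% held CCAAT, against 38.8% for tested genes. The other gene with 3 copies was Cep152, which was not called, while Plk4, Sass6, Cenpj and Cdk5rap2 had none and were called higher. The Cenpj window, chr14:56571797-56572096 on the minus strand, lay inside the annotated gene, which begins on that strand at 56575425. TTTGAA was found in Aspm, Sass6 and Cdk5rap2, against 17.9% of all windows, 11.5% of the first windows of tested genes and 17% of those of genes called higher. It began at position 7 in Aspm and 27 in Cdk5rap2, but at -159 in Sass6, farther from the start. Among the first windows of all 981 genes called higher that had one, 11.1% held 3 or more copies of CCAAT, against 5.17% of the first windows of 11295 tested genes. These matches are descriptions of the letters and were not tested for binding.

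Of the 6 genes of centriole duplication, 5 were called higher, against 7.86% of all tested genes, and Cep152 was not called. Plk4, which encodes the kinase that starts the formation of a new centriole, was measured at 22.2 and 25.9 CPM in ctrl 1 and ctrl 3 and at 35.5, 47.8 and 46.4 CPM in cko 1, cko 2 and cko 3. As for Wdr62, cko 1 was the lowest of the cko libraries but still lay above both ctrl libraries. This gave a log2 fold change of 0.85 with a standard error of 0.15 (edgeR, adjusted p = 0.0116). It was not called without cko 2 (edgeR, adjusted p = 0.0626) or without cko 3 (adjusted p = 0.0653), the latter being the highest of a range that began at 1.33e-09 over 12 alternative fits.

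Stil encodes the partner that PLK4 phosphorylates to recruit SASS6. It was measured at 29.4 and 30.6 CPM in ctrl 1 and ctrl 3 and at 47.8, 61.8 and 61.2 CPM in cko 1, cko 2 and cko 3. The gap between the groups was wider than the spread within either. The mean rose from 30 ± 0.838 CPM (SD, n = 2) to 56.9 ± 7.89 CPM (SD, n = 3), a log2 fold change of 0.92 with a standard error of 0.13 (edgeR, adjusted p = 0.00501). Stil was called in each of the 12 alternative fits, with an adjusted p of at most 0.0358 in edgeR or DESeq2, and so were Aspm, at most 0.0195, and Cenpj, at most 0.0371.

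Sass6, whose protein forms the hub of the cartwheel, was measured at 10.3 and 12.2 CPM in ctrl 1 and ctrl 3 and at 18.9, 20.6 and 17.1 CPM in cko 1, cko 2 and cko 3. It was the only one of the 10 in which cko 1 was not the lowest cko library. Its log2 fold change was 0.75 with a standard error of 0.14 (edgeR, adjusted p = 0.0155). Leaving out cko 1, cko 2 or cko 3 ended the call (edgeR, adjusted p = 0.0523, 0.088 and 0.0559), in a range over 12 alternative fits of 0.00018 to 0.088.

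Cenpj encodes the tubulin-binding protein that sets the length of the centriole wall. Its level was 16.7 CPM in ctrl 1 and 16.3 in ctrl 3, and 27.2, 29.0 and 32.3 CPM in cko 1, cko 2 and cko 3. Both groups were tight and far apart. Between the group means this was a log2 fold change of 0.84 with a standard error of 0.12 (edgeR, adjusted p = 0.00495).

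The scaffold genes showed smaller differences. Cep135, which encodes a protein of the cartwheel spokes and centriole wall, was measured at 28.6 and 25.4 CPM in ctrl 1 and ctrl 3 and at 33.2, 40.3 and 40.5 CPM in cko 1, cko 2 and cko 3. The groups did not overlap, but the gap between ctrl 1 and cko 1 was small beside that to cko 2 and cko 3. Cep135 rose by a log2 fold change of 0.49 with a standard error of 0.12 (edgeR, adjusted p = 0.0334). Among the fits with a library left out, the call was lost without ctrl 3, cko 2 or cko 3 (edgeR, adjusted p = 0.0584, 0.14 and 0.14), with a range of 0.0016 to 0.14 over 12 alternative fits.

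Cep152, whose protein recruits PLK4 to the mother centriole, was measured at 15.6 and 17.7 CPM in ctrl 1 and ctrl 3 and at 17.3, 21.5 and 26.1 CPM in cko 1, cko 2 and cko 3. Here the groups overlapped, because cko 1 lay below ctrl 3. The log2 fold change of 0.38, with a 95% confidence interval from -0.046 to 0.80, was not called (edgeR, adjusted p = 0.196), and the gene was called in 0 of the 12 alternative fits with edgeR or DESeq2, although its unadjusted p was 0.0734. The interval includes both 0 and rises as large as those of Sass6.

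Cdk5rap2, which encodes an anchor of gamma-tubulin complexes in the pericentriolar material, was the most abundant of the 10 and the most even. It was measured at 192.2 CPM in ctrl 1 and 192.1 in ctrl 3, and at 231 CPM in cko 1, 231 in cko 2 and 235 in cko 3. The cko libraries all lay above the ctrl libraries, and the log2 ratios of the 6 pairs of a cko and a ctrl library spanned only 0.26 to 0.29. In Wdr62 the same 6 ratios spanned 0.60 to 1.32. For Cdk5rap2 the log2 fold change was 0.28 with a standard error of 0.068 (edgeR, adjusted p = 0.0335). It was the smallest fold change among the 8 genes called, and among the fits with a library left out, the call was lost without cko 1, cko 2 or cko 3 (edgeR, adjusted p = 0.0747, 0.155 and 0.162), with a range of 0.00304 to 0.162 over 12 alternative fits.

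Mcph1 encodes microcephalin, a nuclear protein that restrains chromosome condensation before mitosis. It was measured at 14.7 and 14.0 CPM in ctrl 1 and ctrl 3 and at 16.6, 19.2 and 20.1 CPM in cko 1, cko 2 and cko 3. The groups did not overlap, but the spread among the cko libraries was wider than the gap between the groups. The log2 fold change of 0.38, with a 95% confidence interval from 0.07 to 0.68, was not called (edgeR, adjusted p = 0.0931).

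**Figure D2:**
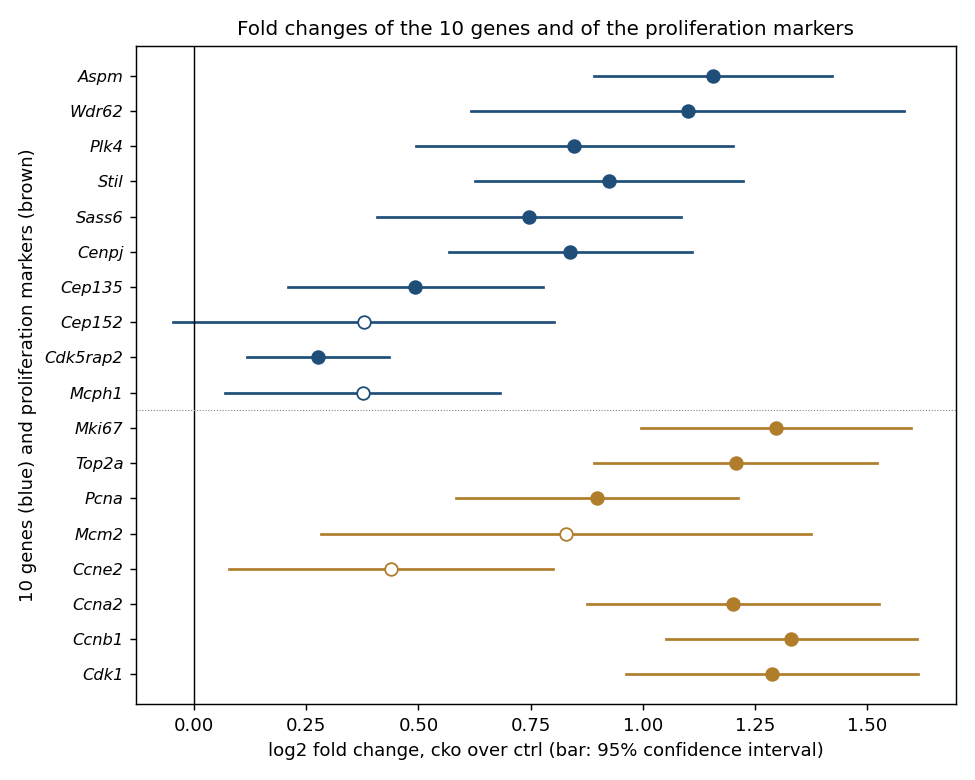
Log2 fold change of cko over ctrl (horizontal axis) with its 95% confidence interval for the 10 genes (blue) and 8 proliferation markers (brown), filled where called higher. Aspm and Wdr62 lie at 1.16 and 1.10, and Cdk5rap2 at 0.28.

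Counts of some of the genes share exons with other annotated genes, and the sources used here do not say whether counting used strand, so these values are uncertain to that extent. In Sass6, 24.5% of the exon bases overlap the antisense gene Gm42893 and 6.36% overlap Trmt13 on the other strand. Trmt13 itself was not called, with a log2 fold change of -0.057 (edgeR, adjusted p = 0.823). The overlaps were smaller for Wdr62 with Thap8 (4.6%), for Cdk5rap2 with the pseudogene Ywhaq-ps3 on the same strand (2.81%) and for Mcph1 with the antisense gene Gm16725 (2.43%). In GENCODE M21 on GRCm38, Sass6 is annotated at chr3:116594982-116631004 and Cdk5rap2 at chr4:70216856-70410443. Aspm is annotated at chr1:139454772-139494091, Wdr62 at chr7:30240138-30280419, Plk4 at chr3:40800019-40816883 and Stil at chr4:115000159-115043196. Cenpj is annotated at chr14:56526761-56575425, Cep135 at chr5:76588698-76646466, Cep152 at chr2:125563088-125625113 and Mcph1 at chr8:18595131-18803189.

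To compare levels between the genes, CPM were divided by the kilobases of exon annotated for each gene. In ctrl, Cdk5rap2 stood highest at 14.8 CPM per kb, followed by Aspm at 7.71 and Stil at 5.18. The next genes were Cep135 at 3.76, Plk4 at 3.51, Wdr62 at 3.46 and Cenpj at 3.39 CPM per kb, of which Plk4 overlapped the libraries of each of the others. Cep152 at 2.89 came next, and Sass6 and Mcph1, both at 1.84 CPM per kb, overlapped each other at the bottom. In cko Cdk5rap2, Aspm and Stil kept their order at the top, and the order changed only in the middle. Aspm, at 17.2 CPM per kb, overlapped Cdk5rap2 at 17.9 in cko, whereas in ctrl they were apart. Wdr62, at 7.41 CPM per kb, stood next after Stil and overlapped Stil at 9.83 and Plk4 at 6.30, and Cep135, at 5.29 CPM per kb, fell behind Cenpj at 6.05, with overlapping libraries. Mcph1 was lowest in cko at 2.38 CPM per kb, below every cko library of Sass6. Transcript forms were not resolved, so these levels assume that each gene's exons are used alike.

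**Figure D3:**
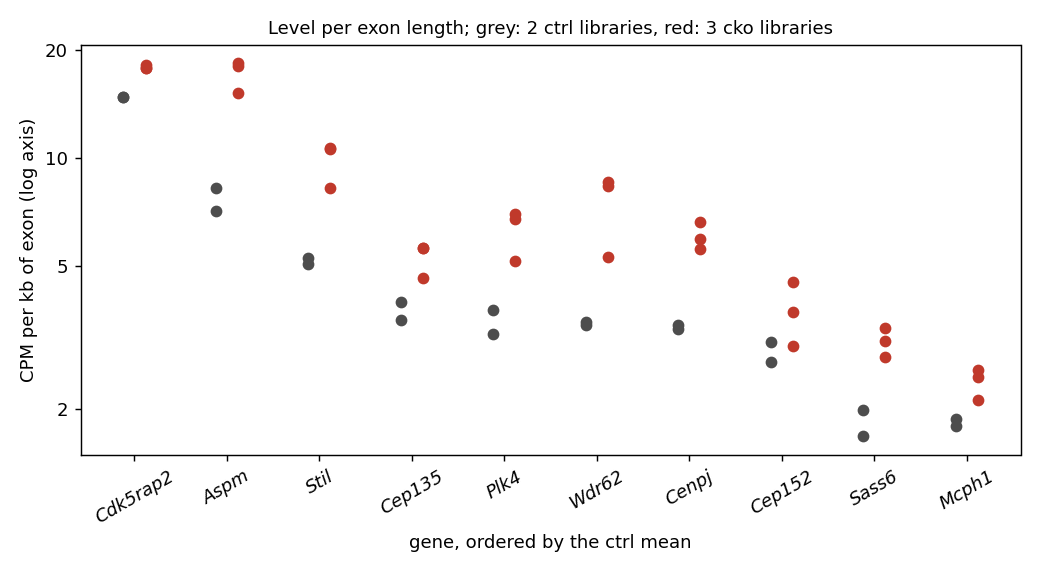
CPM per kb of exon (log axis) for the 10 genes, ordered by the ctrl mean, with 2 ctrl libraries in grey and 3 cko libraries in red. In cko, Aspm reaches the level of Cdk5rap2, and Mcph1 is lowest in cko at 2.38 CPM per kb.

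The cko libraries were not alike for these genes. In 9 of the 10 genes cko 1 was the lowest of the cko libraries, which was the case for 39.4% of all tested genes and for 65.4% of the genes called higher. The summed level of the 10 genes was 445 and 437 CPM in ctrl 1 and ctrl 3 and 634, 733 and 736 CPM in cko 1, cko 2 and cko 3. The sum was lowest in the cko library with the lowest total count, and the part of depth in this was not tested. The ctrl libraries differed less, and each was the lower for 5 of the 10 genes.

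Of 104 tested genes in 7 lists of centrosome, spindle pole and microcephaly genes, 38 were called higher and 0 lower by edgeR. Among all 16710 tested genes, 7.86% were called higher and 8.57% lower. At an unadjusted p under 0.05, 55 were higher and 2 lower, against 2662 and 2783 of all tested genes. DESeq2 called 41 higher and 1 lower, against 1581 and 1703. These values for all tested genes are the comparison for each list and marker group described here. The median log2 fold change of the 104 genes was 0.28, between the 0.79 of the 10 genes and the -0.0026 of all tested genes. No test of the difference between these lists and the 10 genes was made. Without cko 2 or cko 3, 14 and 15 of the list genes were called higher.

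Among 20 tested other primary microcephaly genes, 10 were called higher and 0 lower in edgeR, with a median log2 fold change of 0.45. One more, Pdcd6ip, was lower by DESeq2 and at an unadjusted p under 0.05 in edgeR, where 13 were higher. Knl1, a kinetochore scaffold, lay at 30.8 and 31.5 CPM in the ctrl libraries and between 67.9 and 81.4 CPM in the cko libraries, a log2 fold change of 1.26 (edgeR, adjusted p = 0.00106). Cdk6, a kinase of the entry into the cell cycle, rose by 1.33 (edgeR, adjusted p = 0.00109), and Cenpe, a kinetochore motor, by 1.28 on the log2 scale (edgeR, adjusted p = 0.002). The others called were Lmnb1, Bub1, Kif14, Cit and the condensin genes Ncapd2, Ncapd3 and Ncaph, most of which act in mitosis rather than at the centrosome. Map11 was not analysed here.

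Of 18 other centriole assembly genes, 8 were called higher and 0 lower in edgeR, with a median log2 fold change of 0.30. DESeq2 called 9 higher and 0 lower, and 11 were higher and 0 lower at an unadjusted p under 0.05. Cep57, which tethers the new centriole and its pericentriolar material, rose by 0.51 (edgeR, adjusted p = 0.00876), and Cetn2, a centrin of the centriole lumen, by 0.54 on the log2 scale (edgeR, adjusted p = 0.0125). Poc1a, a centriole wall protein at 4.98 and 5.5 CPM in ctrl and 10 to 12.6 CPM in cko, had the largest rise of the list, at 1.08 (edgeR, adjusted p = 0.00883). Among 6 genes that control duplication, Ccnf alone was called, at a log2 fold change of 1.01 (edgeR, adjusted p = 0.0106). It encodes the cyclin F subunit of a ubiquitin ligase and lay at 30.4 and 39.7 CPM in ctrl and between 56.8 and 80.8 CPM in cko.

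In the pericentriolar material and gamma-tubulin list, 8 of 22 genes were called higher and 0 lower in edgeR, with a median log2 fold change of 0.30. DESeq2 called 9 higher and 0 lower, and 11 were higher and 0 lower at an unadjusted p under 0.05. Pcnt, which encodes pericentrin, a binding partner of CDK5RAP2, lay at 49.4 and 44.9 CPM in ctrl and at 68.8, 82.6 and 85.1 CPM in cko, a log2 fold change of 0.74 (edgeR, adjusted p = 0.00665). Its rise was larger than that of Cdk5rap2, although no test of that difference was made. Nedd1, the adaptor that brings gamma-tubulin to the spindle, rose by 0.54 (edgeR, adjusted p = 0.00996), and Haus4, a subunit of augmin, by 0.92 on the log2 scale (edgeR, adjusted p = 0.0116).

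Of 19 genes of centriole appendages, linker and satellites, 5 were called higher and 0 lower in edgeR, with a median of 0.20. DESeq2 called 6 higher and 0 lower, and 7 were higher and 0 lower at an unadjusted p under 0.05. Cep128, an appendage protein, lay at 14.2 and 11.2 CPM in ctrl and between 25.5 and 30.3 CPM in cko, and Nek2, the kinase that dissolves the linker before mitosis, at 18.5 and 21.2 CPM in ctrl and between 36.1 and 50 CPM in cko. Their log2 fold changes were 1.16 and 1.14 (edgeR, adjusted p = 0.00369 and 0.00462), and that of Cep72, a satellite protein, was 0.65 (edgeR, adjusted p = 0.0132). Of 10 spindle pole partner genes, 6 were called higher and 0 lower in edgeR and in DESeq2, with a median of 0.51, and 9 were higher and 0 lower at an unadjusted p under 0.05. Tpx2 rose by 1.25 (edgeR, adjusted p = 0.00192), the mitotic kinase Plk1 by 1.22 (edgeR, adjusted p = 0.00278) and Tacc3 by 0.94 on the log2 scale (edgeR, adjusted p = 0.00287).

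Cells that lose their centrosomes are known to activate p53 through USP28 and the p53-binding protein encoded by Trp53bp1. Of 9 genes of this response, 0 were called in either direction by edgeR, against 7.86% called higher and 8.57% lower among all tested genes, and 0 by DESeq2. At an unadjusted p under 0.05, 2 were higher and 1 lower, and with so few genes a count of 0 does not set this list apart. The gene at the lower side was Cdkn1a, the p53 target that encodes p21, at 142 and 403 CPM in ctrl 1 and ctrl 3 and at 117, 157 and 149 CPM in cko 1, cko 2 and cko 3. The groups overlapped, since ctrl 1 lay below cko 2 and cko 3, and ctrl 3 stood apart from all other libraries. The log2 fold change was -0.95 with a standard error of 0.37 (edgeR, adjusted p = 0.121). Trp53bp1 lay at 150 and 136 CPM in ctrl and at most 133 CPM in cko, with a log2 fold change of -0.12 (edgeR, adjusted p = 0.304).

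**Figure D4:**
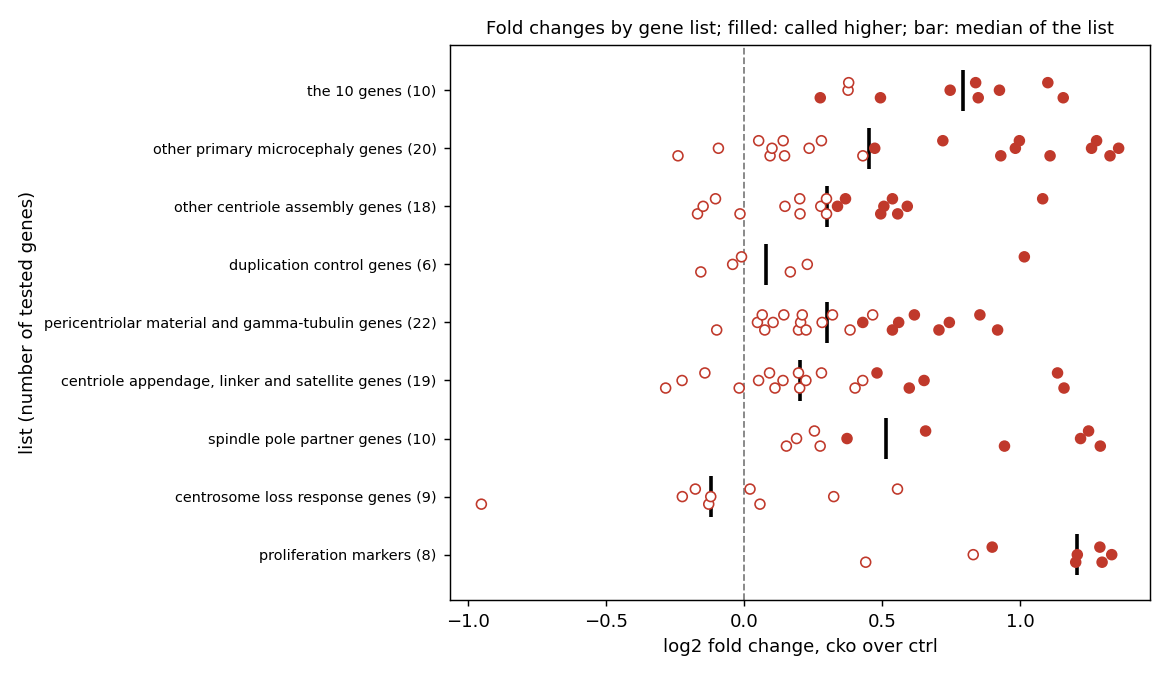
Log2 fold change of cko over ctrl for each tested gene of the 10 and of 8 further lists, filled where called higher in edgeR, with a bar at the median of each list and a dashed line at the median of all tested genes. The 10 genes have a median of 0.79, above that of each list of other centrosome, spindle pole or microcephaly genes.

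The proliferation markers moved with the 10 genes. Of 8 markers, 6 were called higher by edgeR and 7 by DESeq2, with a median log2 fold change of 1.20 and a range of 0.44 to 1.33. Their summed level was 843 and 961 CPM in ctrl 1 and ctrl 3 and 1725, 2281 and 2161 CPM in cko 1, cko 2 and cko 3, so that cko 1 was again the lowest of the cko libraries. Mki67 encodes a coat protein of mitotic chromosomes and lay at 254 and 269 CPM in ctrl 1 and ctrl 3 and at 539, 705 and 683 CPM in cko 1, cko 2 and cko 3. Its log2 fold change of 1.30 (edgeR, adjusted p = 0.00192) stood above that of each of the 10 genes, as did the 1.21 of Top2a, the 1.20 of Ccna2, the 1.33 of Ccnb1 and the 1.29 of Cdk1. Pcna, at 0.90, lay within their range, while Mcm2 at 0.83 and Ccne2 at 0.44 were not called (edgeR, adjusted p = 0.0511 and 0.0952). A larger share of dividing cells and more transcript in each cell cannot be told apart in these bulk libraries, and the part of the dividing share in the levels of the 10 genes was not tested.

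Genes whose profile over the 5 libraries was closest to that of a member were sought among 10179 other tested genes with a mean of at least 10 CPM, by the root mean square difference of centred log2(CPM + 0.5). For Aspm they were Iqgap3, Cenpf and Stmn1, with differences of 0.0136, 0.0268 and 0.0315. Iqgap3, the closest, lay at 29.6 and 25.7 CPM in ctrl 1 and ctrl 3 and at 55.9, 67.7 and 65.7 CPM in cko 1, cko 2 and cko 3, and shared with Aspm the lower ctrl 3 and the lower cko 1. For Plk4 the closest were Cdc25b, Mcm7 and Ly6e, with differences of 0.0115, 0.0213 and 0.0237. In these genes, as in Plk4, ctrl 1 lay below ctrl 3, the reverse of the order in Aspm.

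For Cdk5rap2 the closest were 2700081O15Rik, Eny2 and Mllt3, with differences of 0.00797, 0.00808 and 0.0123, all of them with log2 fold changes between 0.27 and 0.29. For Mcph1 the closest were Smarca4, Gps2 and Myg1, with differences of 0.0173, 0.0267 and 0.0274. The genes closest to Aspm and to Plk4 had log2 fold changes of 1.16 to 1.19 and 0.82 to 0.89. All these genes were picked by a profile that includes the difference between cko and ctrl. Their similar fold changes and order of libraries follow from that choice.

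Markers of other cell types also differed between the genotypes, and their part in the levels of the 10 genes was not tested. The 4 oligodendrocyte markers examined summed to 1050 and 1222 CPM in ctrl 1 and ctrl 3 and to 1074, 1097 and 1051 CPM in cko 1, cko 2 and cko 3, with overlapping groups. Of these, Sox10 and Mbp were called lower, with log2 fold changes of -1.90 and -4.16 (edgeR, adjusted p = 0.000668 and 0.000367), while Olig2, the most abundant, was called higher. The 5 astrocyte markers, of which S100b and Gja1 were called lower, summed to 1812 CPM in ctrl 1 but 694 in ctrl 3, and to 728, 342 and 378 CPM in cko 1, cko 2 and cko 3. Gfap lay at 1008 CPM in ctrl 1 and at no more than 298 CPM in the other libraries.

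Of 4 neuron markers tested, Dcx was called lower, while the other 3 had positive log2 fold changes that were not called, and the list summed to between 1087 and 1214 CPM with overlapping groups. The 2 intermediate progenitor markers summed to between 5.07 and 8 CPM, and Lhx2 was called higher among the 2 dorsal telencephalon markers tested. Among the multiciliated cell markers, Deup1 had 0 counts in every library, and the 6 markers summed to between 19.7 and 29.3 CPM, most of it Foxj1. Microglia markers summed to at most 0.587 CPM with Cx3cr1 at 0 in every library, the 2 endothelial markers measured to between 4.02 and 6.71 CPM, led by Kdr, and mesenchymal markers to between 0.727 and 3.57 CPM, led by Col1a1. Of the 3 multiciliated, 2 endothelial and 1 mesenchymal markers tested, 0 were called by edgeR and 0 by DESeq2, and at an unadjusted p under 0.05, 0 were higher and 1, Col1a1, was lower. The tested intermediate progenitor marker, Neurog2, was not called.

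**Figure D5:**
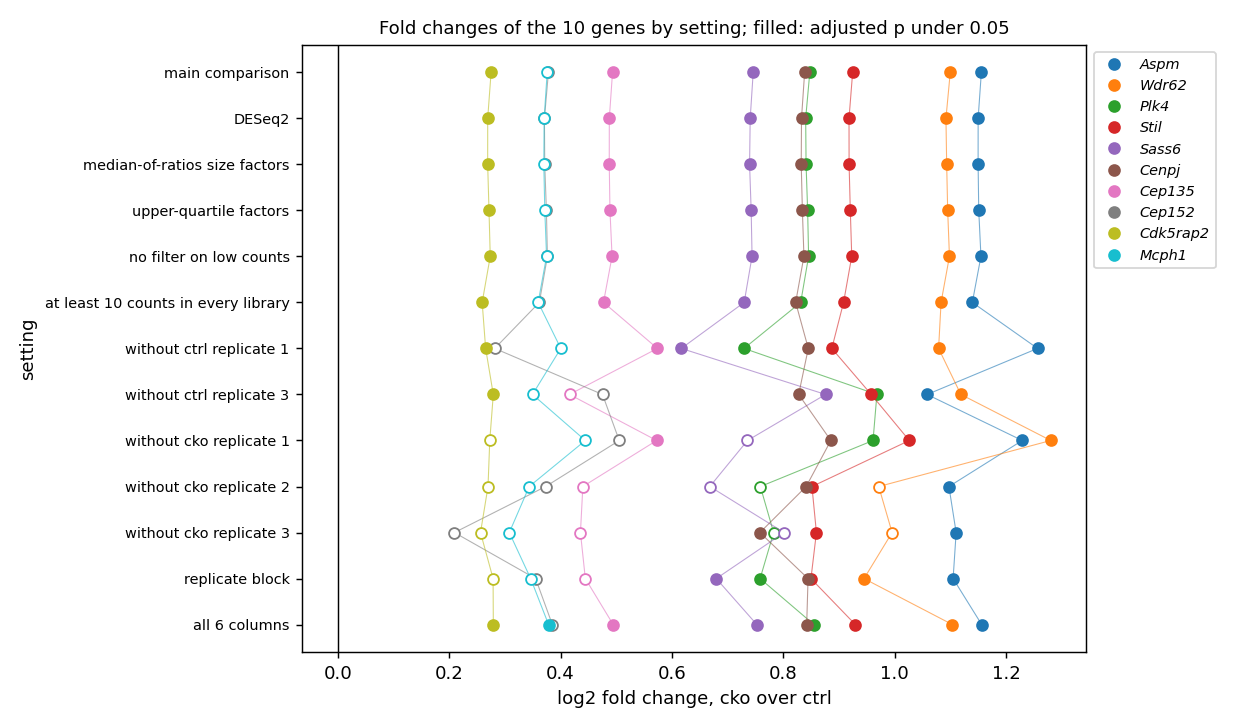
Log2 fold change of cko over ctrl for the 10 genes under the main comparison and 12 alternative fits (vertical axis), filled where the adjusted p was under 0.05. All values lie above 0, and open points gather where cko replicate 2 or 3 was left out.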

How the data were processed

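Raw counts per gene, without normalization, were deposited by the authors, who checked reads with FastQC, filtered them with NGSQC and used HISAT2 for alignment to mm10 (GRCm38). The counting tool, annotation and strand setting are not given in the sources used here. The submitters' processing notes name GRCm39 instead, and the labels name an RNeasy kit where the methods name TRIzol. The deposited counts held 6 columns, of which 5 were used.

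Genes and lists were chosen with earlier results of these data known. Named genes were the 10 genes, the 3 genes of each list with the smallest p in each direction among those called (otherwise its 2 most abundant), the proliferation markers and the 3 closest profiles. Other list genes and the cell type markers given by name were chosen after their values were seen.

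Symbols, exon lengths and positions came from GENCODE M21, which matched 31836 of 32493 IDs. The other 657 held 0.181% to 0.299% of counts. Cldn5 and Map11 were not analysed here. Some cell type markers are not reported here. Counts were scaled by TMM, filtered with filterByExpr and tested with the quasi-likelihood test of edgeR 4.0.16 in R 4.3.3 with Benjamini-Hochberg adjustment over 16710 genes (limma 3.58.1 as its base), after the steps were tested on simulated data. The alternatives were DESeq2 1.42.0, other size factors, other filters, leaving out each library, the replicate number as a block, all 6 columns and another threshold. Totals of 17883796 to 23335736 counts per library set the floor of 3 counts at 0.129 to 0.168 CPM. These floors of single libraries cover counting error only. The confidence intervals of the log2 fold changes came from the quasi-likelihood fit and include the estimated spread between libraries. Promoters came from RefSeq (GRCm38.p6). Tables and figures were made in Python 3.11.15 with pandas 2.3.3, numpy 2.4.6 and matplotlib 3.10.9.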

Additional observations from a re-analysis of the deposited data

How the results depend on the processing

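All 10 log2 fold changes stayed positive in each of 12 alternative fits. Of 120 values, 104 kept their side of the threshold, 15 lost the call and 1, Mcph1 with all 6 columns, gained it. Changes of tool, size factors or filter left 8 of the 10 genes called, and over all 12 fits the median of all fitted genes stayed between -0.012 and 0.013. Leaving out 1 library gave between 3 and 8 of the 10 genes, between 317 and 1812 of all genes called higher and between 416 and 2062 lower, and between 14 and 47 of the other list genes higher and between 0 and 2 lower. Without ctrl 1 or ctrl 3, the lone ctrl library is assumed to vary like the cko libraries. The low counts without cko 2 or cko 3 come with 1 library fewer, and why those without cko 1 were higher was not tested.

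With no filter on low counts, 1838 of all genes and 42 list genes were called higher, and 2237 and 1 lower. DESeq2 and the limit of at least 10 counts in every library each also called 1 list gene lower. With all 6 columns, 2865 genes were called higher and 2794 lower, with 2 list genes lower, and the column of ctrl 2, being a mean of the others, narrows the spread. A log2 fold change beyond 0.9 with an unadjusted p under 0.01 gave 3 of the 10 genes, 17 list genes higher, and 399 genes higher and 696 lower in all. The cause of the other differences was not tested.

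With the replicate number as a block, 6 of the 10 genes, 29 list genes higher and 1 lower, and 918 genes higher and 1065 lower in all were called. Cep135 and Cdk5rap2 lost the call (edgeR, adjusted p = 0.0865 and 0.154). The numbers are shared by name only. Since ctrl 2 was left out, number 2 was held by cko 2 alone. In this fit cko 2 therefore added nothing to the comparison of the genotypes. Deviations from the group means correlated at 0.179 for ctrl 1 with cko 1 and at 0.055 for ctrl 3 with cko 3. Of the pairs with different numbers, ctrl 3 with cko 2 correlated at 0.16, and the others had negative values. Because ctrl 1 and ctrl 3 were the only ctrl libraries, their deviations are exact opposites. Each negative value is therefore the mirror of a positive one and adds no information. These correlations are across 16710 genes that are not independent.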

Other observations

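Within the pericentriolar list, the augmin subunits and the Tubg and Tubgcp subunits of the gamma-tubulin complex were grouped after their values were seen. Augmin branches new microtubules from existing ones in the spindle. Of 8 augmin subunits, 5 were called higher by edgeR and by DESeq2, with log2 fold changes of 0.065 to 0.92 and a median of 0.59. Of the 7 Tubg and Tubgcp subunits, 0 were called in edgeR, with log2 fold changes of 0.047 to 0.47 and a median of 0.20. Mzt1 and Mzt2, of the same list but outside this group, had log2 fold changes of -0.10 and 0.22 and were not called. Among all tested genes, 7.86% were called higher and 8.57% lower, so 0 of 7 does not set this group apart. At an unadjusted p under 0.05, 2 of these 7 were higher and 0 lower, and DESeq2 called 1 of them, Tubg1, higher. The difference between both groups was not tested.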
